A study of Mus musculus with 6 samples.

Results

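Cytochrome c oxidase, the last enzyme of the respiratory chain, is built around a catalytic core made from mitochondrial genes and surrounded by nuclear-encoded subunits, some of which exist in tissue-specific versions. The 9 genes described here were chosen by symbol as the genes of these versions, 9 of 34745 in the gene table, and all 9 were found. They fall into 3 pairs with a heart and skeletal muscle form and a form made in most tissues, Cox6a2 with Cox6a1, Cox7a1 with Cox7a2 and Cox8b with Cox8a. A further pair holds the general form Cox4i1 and the restricted form Cox4i2, and the set is completed by Cox7a2l.

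Subunits VIa, VIIa and VIII are small proteins at the outside of the enzyme, and subunit IV carries the site where ATP is known to slow it. In rodents the muscle forms replace the general forms in heart and skeletal muscle during development around birth. Cox4i2 is known for its induction by low oxygen and for its expression in lung and in the pericytes of blood vessels. Cox7a2l encodes a protein described as linking the enzyme to complex III in supercomplexes, and RNA levels do not show whether it does so here. Cox7a1 and Cox8b are also known as genes of brown fat.

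RNA came from left ventricle of wild-type male C57BL/6 mice, given as 8 weeks old, that had undergone transverse aortic constriction (TAC), a ligature that narrows the aortic arch, or a sham operation with no ligature. The tissue was taken 6 weeks after surgery, and 3 libraries carry each label. No transgene or drug is named, so the groups share every labelled feature but the ligature. The labels do not say that each library came from its own mouse, so a p-value reflects only how far these libraries vary, and that variation may be technical.

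The gene counts summed to between 17399510 and 28401399 per library, and the 9 genes together took 0.105% to 0.137% of them. Nppa, the atrial natriuretic peptide gene that pressure overload is known to raise, stood at 97.0 ± 19.7 scaled FPKM under the label TAC and 1258 ± 815 under the label Sham (SD, n = 3 each; log2 difference -3.70, SE 0.45, edgeR adjusted p = 0.0222). Acta1, skeletal alpha-actin and another marker of overload, likewise stood at 281 ± 184 and 2647 ± 753. These orders are the opposite of what the labels call for, so each direction below is stated by label only. Scaled FPKM here means the count divided by gene length and by library size after TMM scaling, edgeR's correction for library composition.

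Promoter sequences were available from RefSeq (GRCm38.p6) for 6 of the 9 genes, and those of the VIIa and VIII pairs are shown because the muscle and the general form of each pair can be set side by side. Each runs 5′ to 3′ from 250 bases before to 50 bases after the annotated start of the gene. The capitals mark AGATAA in Cox7a1, GGGCGG in Cox7a2, CAGCTG and TATAAA in Cox8b and CCGGAAG in Cox8a, each searched on both strands. The windows are chr7:30183921-30184220 on the plus strand for Cox7a1, chr9:79759804-79760103 on the minus strand for Cox7a2, chr7:140900397-140900696 on the minus strand for Cox8b and chr19:7217567-7217866 on the minus strand for Cox8a.
Cox7a1: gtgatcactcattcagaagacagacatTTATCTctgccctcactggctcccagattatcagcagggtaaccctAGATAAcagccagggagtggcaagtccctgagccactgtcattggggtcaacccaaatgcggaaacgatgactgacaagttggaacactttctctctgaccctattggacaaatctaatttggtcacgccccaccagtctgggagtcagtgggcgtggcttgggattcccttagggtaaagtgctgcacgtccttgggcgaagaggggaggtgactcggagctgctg
Cox7a2: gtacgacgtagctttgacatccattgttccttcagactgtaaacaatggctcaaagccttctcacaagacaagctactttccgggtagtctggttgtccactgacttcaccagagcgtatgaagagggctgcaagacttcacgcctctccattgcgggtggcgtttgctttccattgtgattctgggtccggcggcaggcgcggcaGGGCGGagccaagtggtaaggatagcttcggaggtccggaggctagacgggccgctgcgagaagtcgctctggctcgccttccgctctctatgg
Cox8b: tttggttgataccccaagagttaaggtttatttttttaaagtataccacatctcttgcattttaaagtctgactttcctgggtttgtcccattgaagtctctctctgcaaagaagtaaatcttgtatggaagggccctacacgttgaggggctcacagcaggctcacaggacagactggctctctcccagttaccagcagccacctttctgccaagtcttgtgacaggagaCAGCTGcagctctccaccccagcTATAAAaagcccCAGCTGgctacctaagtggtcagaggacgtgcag
Cox8a: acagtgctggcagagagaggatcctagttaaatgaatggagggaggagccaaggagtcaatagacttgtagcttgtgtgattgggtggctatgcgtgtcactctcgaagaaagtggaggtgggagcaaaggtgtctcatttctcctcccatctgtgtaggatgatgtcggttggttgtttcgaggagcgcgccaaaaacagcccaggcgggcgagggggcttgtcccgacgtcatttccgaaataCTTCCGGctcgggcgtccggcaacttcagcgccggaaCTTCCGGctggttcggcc

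The muscle forms Cox7a1 and Cox8b had fewer CpG dinucleotides in this window than their partners. Cox7a1 had 7 and Cox8b had 2, against 20 in Cox7a2 and 19 in Cox8a, with a median of 7 over 32851 promoter windows of the same length. Cox6a1, the general form of the remaining pair, had 32, more than 90.5% of those windows, and Cox7a2l had 19. The G and C content was 53.0% in Cox7a1 and 48.3% in Cox8b, against 56.7% in Cox7a2 and 56.0% in Cox8a.

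Short motifs differed between the partners as well. Each percentage below is the share of all windows that hold at least 1 copy. Cox8b held 2 copies of the muscle-type E-box CAGCTG, which 16.3% of all windows hold, on either side of a TATAAA (13.6%) that began at base 5 after the annotated start. Cox7a1 held 2 copies of the GATA motif AGATAA (11.2% of windows), and Cox8a held 2 of the ETS motif CCGGAAG (8.86%). Cox7a2 held 1 copy of GGGCGG, the core of an SP1 site (35.7%), and Cox6a1 and Cox7a2l held 2 each. The general form Cox6a1 also held 1 CCGGAAG and 3 copies of GCGCANGC, part of the NRF1 motif (9.95%). Of these copies 2 overlap, as the same stretch read on opposite strands. CANNTG, the wider E-box that includes CAGCTG, was found in every one of these windows but that of Cox6a1, and in 72.3% of all windows. AAGGTCA, an oestrogen-related receptor half-site (4.72%), and the MEF2 motif (3.19%) were found in none of the 6 windows, which says only that these letters are not there.

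Across the 6 libraries the muscle forms Cox7a1 and Cox6a2 were the most abundant of the 9 transcripts per length. Cox7a1 averaged 416 scaled FPKM (301 to 548) and Cox6a2 392 (338 to 450), and these neighbours exchanged places between the labels, Cox7a1 being the higher in all 3 TAC-labelled libraries and Cox6a2 in all 3 labelled Sham. Cox8b at 187 (154 to 226), Cox7a2 at 184 (149 to 218) and Cox4i1 at 164 (140.1 to 184) had overlapping ranges, although Cox7a2 was above Cox4i1 in each of the 6 libraries. Cox8a followed at 95.2 (91.6 to 98.6), Cox7a2l at 70.7 (57.5 to 82.0), Cox6a1 at 11.3 (8.88 to 12.8) and Cox4i2 at 2.19 (1.36 to 2.70), with no overlap between neighbours. These levels depend on the gene length that the deposited values imply, from 362 bases for Cox8b to 2661 for Cox4i1. The level of Cox4i1 would be higher with a shorter length. All the levels, and so their order, could also depend on how reads were assigned to genes, which is not stated.

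The comparison between the labels asked which of these forms differ in the ventricle after pressure overload. Cox7a1, the muscle form of subunit VIIa, was higher under the label TAC by 1.61-fold and was the only one of the 9 genes past the threshold in edgeR's quasi-likelihood test, where 0.322% of 15198 genes tested were called higher, 1.11% lower and 1.43% in either direction. The other muscle forms and the general forms Cox4i1 and Cox7a2 had positive log2 differences of 0.27 to 0.38 that did not pass. Cox4i2 had the largest difference toward the libraries labelled Sham, 1.38-fold, and did not pass. In 6 of the 9 genes the labelled groups did not overlap, 5 higher and 1 lower under the label TAC, against 27.0% of all genes tested without overlap (13.4% higher and 13.6% lower). At an unadjusted p under 0.05 there were 5 of the 9 (55.6%), against 20.9% of all genes tested. The median log2 difference was 0.27 over the 9 genes and 0.01 over all genes tested.

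**Figure D1:**
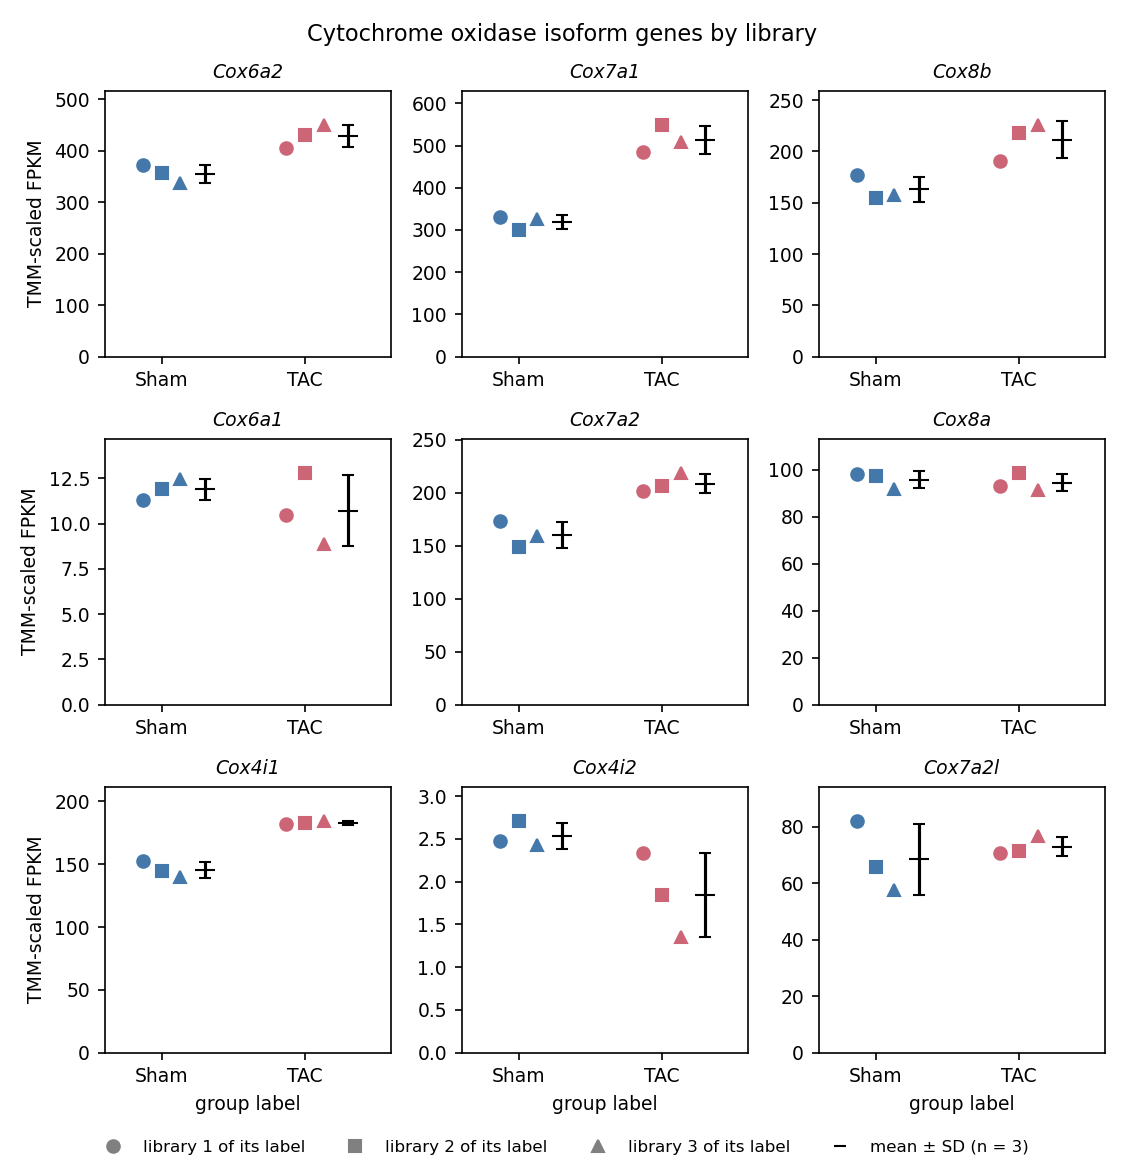
Scaled FPKM of the 9 genes, 1 point per library, by group label, with the mean ± SD of 3 libraries beside the points and every axis starting at 0. The labelled groups are apart for Cox6a2, Cox7a1, Cox8b, Cox7a2, Cox4i1 and Cox4i2 and overlap for Cox6a1, Cox8a and Cox7a2l.

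Cox7a1 (ENSMUSG00000074218, chromosome 7, 30184171 to 30186028 on GRCm38), at 484, 548 and 509 scaled FPKM in libraries TAC 1, 2 and 3, stood at 330, 301 and 325 in libraries Sham 1, 2 and 3. Every library labelled TAC was above every library labelled Sham, by more than the spread within either group. The means were 513 ± 32.5 and 319 ± 15.9 (SD, n = 3 each), with a log2 difference of 0.69 (SE 0.10, edgeR adjusted p = 0.0321). The call was lost without any library but Sham 1, at adjusted p = 0.0906, 0.101 and 0.0723 without TAC 1, 2 and 3 and 0.103 and 0.1004 without Sham 2 and 3, while the log2 difference stayed between 0.64 and 0.73. In that series of fits the number of genes called in the whole table ran from 0 (2564 at an unadjusted p under 0.05) without TAC 1 to 397 without Sham 1.

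**Figure D2:**
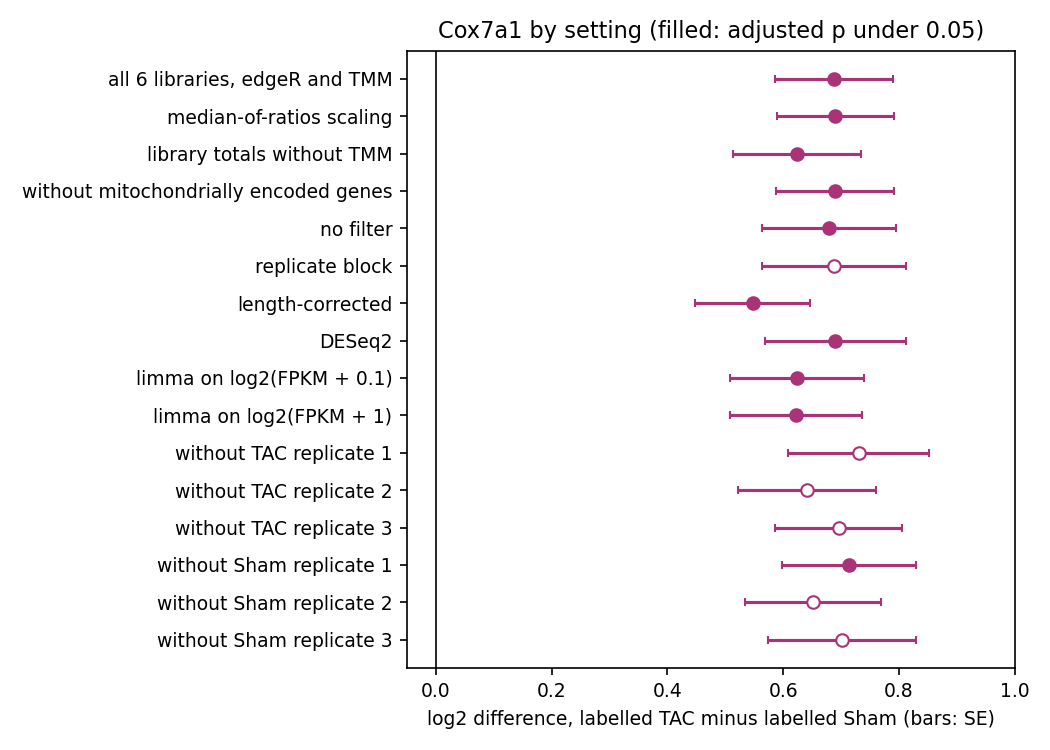
Log2 difference of Cox7a1 with its SE under each of 16 settings, filled where the adjusted p was under 0.05. The estimates lie between 0.55 with a correction for gene length and 0.73 without TAC 1, and the open points are the replicate block and 5 of the 6 fits that leave out a library.

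Cox7a2, the general form of the same subunit, was also higher in each library labelled TAC. It stood at 201, 206 and 218 scaled FPKM there and at 173, 149 and 159 in libraries Sham 1, 2 and 3. The groups did not overlap, and the log2 difference was 0.38 (SE 0.10, edgeR adjusted p = 0.109). DESeq2, which called 3.15% of all genes higher under the label TAC, 4.65% lower and 7.79% in either direction, called Cox7a2 (adjusted p = 0.0331) along with Cox7a1 and Cox4i1.

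Cox7a2l, a further gene of the same family, showed no such separation. Its values were 70.6, 71.5 and 76.7 scaled FPKM in libraries TAC 1, 2 and 3 and 82.0, 65.9 and 57.5 in libraries Sham 1, 2 and 3. The libraries labelled Sham spanned those labelled TAC on both sides, so the groups overlapped (log2 difference 0.09, SE 0.14, edgeR adjusted p = 0.758). Without Sham 1 the difference was 0.24 and without Sham 3 it was -0.02.

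Cox6a2 (chromosome 7, 128205435 to 128206387), the muscle form of subunit VIa, had 406, 431 and 450 scaled FPKM under the label TAC and 372, 357 and 338 under the label Sham. Each library labelled TAC exceeded each labelled Sham, but the difference was small (log2 0.27, SE 0.10, edgeR adjusted p = 0.186). Its general partner Cox6a1 had 10.5, 12.8 and 8.88 scaled FPKM in libraries TAC 1, 2 and 3 and 11.3, 11.9 and 12.5 in libraries Sham 1, 2 and 3. TAC 2 was the highest of the 6 and TAC 3 the lowest, so the groups overlapped (log2 difference -0.15, SE 0.16, edgeR adjusted p = 0.641; -0.03 without TAC 3 and -0.29 without TAC 2).

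Cox8b (chromosome 7, 140898943 to 140900446), the muscle form of subunit VIII and a functional gene in the mouse, had 191, 218 and 226 scaled FPKM under the label TAC and 177, 154 and 158 under the label Sham. The groups were apart, with TAC 1 and Sham 1 nearest to each other (log2 difference 0.38, SE 0.11, edgeR adjusted p = 0.128). Its general partner Cox8a had 93.4, 98.6 and 91.6 scaled FPKM in libraries TAC 1, 2 and 3 and 98.4, 97.5 and 91.9 in libraries Sham 1, 2 and 3. Cox8a had the narrowest range of the 9 genes relative to its level, and its groups overlapped (log2 difference -0.02, SE 0.10, edgeR adjusted p = 0.921). With a correction for gene length the log2 difference was 0.23 for Cox8b and -0.12 for Cox8a.

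Cox4i1 (chromosome 8, 120668222 to 120674207), the general form of subunit IV, had 182, 183 and 184 scaled FPKM under the label TAC and 152, 144 and 140.1 under the label Sham. The libraries labelled TAC lay close together and all above the others (log2 difference 0.33, SE 0.10, edgeR adjusted p = 0.128). DESeq2 gave it an adjusted p of 0.0305. Emc8, whose annotated span overlaps one end of Cox4i1, had 333 to 468 counts per library against 6862 to 10874 for Cox4i1. Whether the counting used strand is not stated, so reads in the shared stretch could belong to either gene.

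Cox4i2 (chromosome 2, 152754173 to 152765037), the restricted form of subunit IV, was scarce, with 56, 42 and 31 counts in libraries TAC 1, 2 and 3 and 60, 89 and 52 in libraries Sham 1, 2 and 3. The exact 95% Poisson interval, which covers counting error only, ran from 21.1 to 44.0 for the lowest of these counts and from 71.5 to 109.5 for the highest. Per length and library size the values were 2.33, 1.84 and 1.36 scaled FPKM under the label TAC and 2.47, 2.70 and 2.43 under the label Sham. All 3 libraries labelled TAC were lower, TAC 1 only slightly (log2 difference -0.46, SE 0.25, edgeR adjusted p = 0.343; -0.28 without TAC 3). A lncRNA transcript within the span of Cox4i2 had 2 to 8 counts per library.

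The balance within a pair was measured as the ratio of FPKM in the same library, which does not depend on how libraries are scaled. In each of the 3 muscle pairs the ratio of the muscle form to its partner was higher under the label TAC. In the subunit IV pair that of the restricted form was lower, and the labels did not overlap in any of the 4 pairs. Of all single genes tested 27.0% were without overlap, and no such share was computed for ratios of other genes. The ratios rest on the same counts as the differences of each gene above, so they are not separate from them. Each of the 4 exact permutation tests (two-sided, 3 against 3 libraries) gave p = 0.10, the smallest p this design allows, and 0.10 adjusted over the 4 pairs, so none could pass the threshold. The pairs were chosen with earlier results on these genes known.

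For subunit VIa, Cox6a2 was 38.8, 33.7 and 50.6 times as abundant as Cox6a1 in libraries TAC 1, 2 and 3 and 33.0, 29.9 and 27.1 times in libraries Sham 1, 2 and 3. TAC 2 and Sham 1 were nearly equal and TAC 3 stood highest. The muscle form thus made up 97.1% to 98.1% of the pair under the label TAC and 96.4% to 97.1% under the label Sham. These shares rest on 208 to 402 Cox6a1 counts per library. The counting program is not stated, so they could depend on how reads were assigned to genes. The mean log2 ratio differed by 0.44 (SE 0.19), or 1.35-fold, and by 0.27 without TAC 3.

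For subunit VIIa, the ratio of Cox7a1 to Cox7a2 was 2.40, 2.66 and 2.33 under the label TAC and 1.91, 2.02 and 2.05 under the label Sham. Both genes had higher values under the label TAC, Cox7a1 by the larger factor. Its share of the pair was 70.0% to 72.7% against 65.6% to 67.2%, a log2 difference of 0.30 (SE 0.07). The summed level of the pair was 685, 754 and 727 scaled FPKM under the label TAC and 503, 449 and 484 under the label Sham.

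For subunit VIII, Cox8b was 2.04, 2.21 and 2.46 times as abundant as Cox8a under the label TAC and 1.80, 1.58 and 1.72 times under the label Sham. Here the muscle form differed between the labels while the levels of Cox8a overlapped. Cox8b made up 67.1% to 71.1% of the pair against 61.3% to 64.2%, and the log2 ratio differed by 0.40 (SE 0.09).

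For subunit IV, Cox4i2 reached 1.26%, 0.998% and 0.731% of the pair in libraries TAC 1, 2 and 3 and 1.59%, 1.84% and 1.70% in libraries Sham 1, 2 and 3. The log2 ratio of Cox4i2 to Cox4i1 was lower by 0.82 on average under the label TAC (a difference of -0.82, SE 0.24; -0.61 without TAC 3 and -1.01 without TAC 1). The log2 ratios varied more under the label TAC (SD 0.40) than under the label Sham (SD 0.10).

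**Figure D3:**
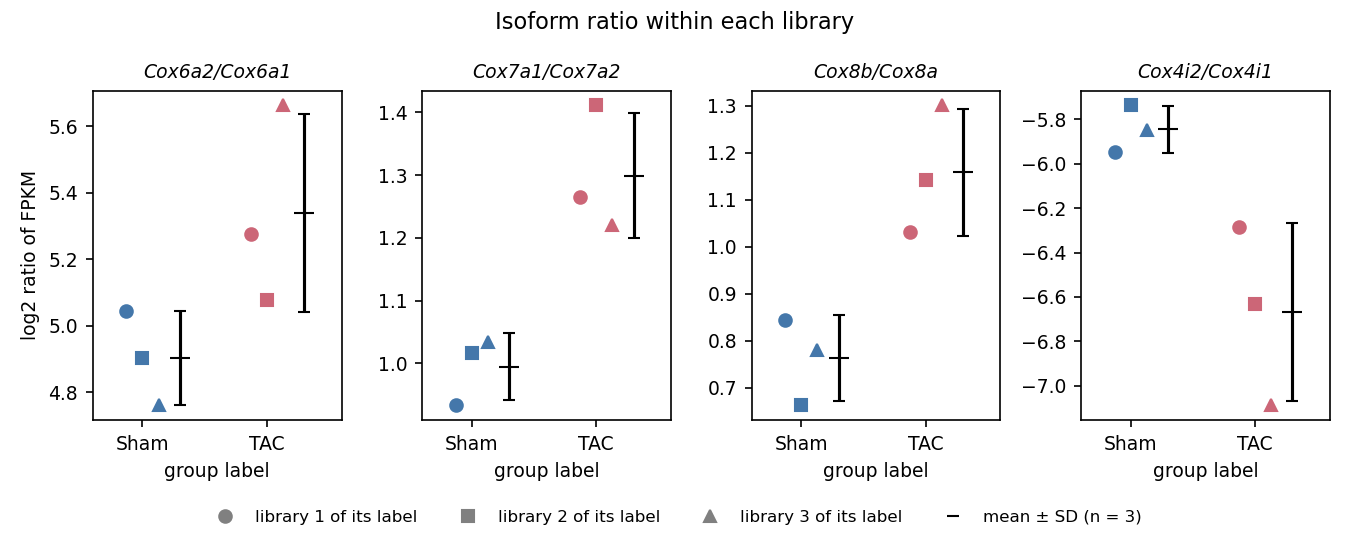
Log2 ratio of FPKM within each library for the 4 pairs, 1 point per library, with the mean ± SD of 3 libraries. The axes are separate and do not start at 0. The ratio is higher in all 3 TAC-labelled libraries for the 3 muscle pairs and lower for Cox4i2 to Cox4i1.

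The muscle forms are shorter than their partners, at 680 against 1191 bases for subunit VIa, 364 against 754 for VIIa and 362 against 545 for VIII. When a trend of each library with gene length was removed, the differences between partners were 0.39, 0.24 and 0.36 on the log2 scale for VIa, VIIa and VIII and -0.82 for Cox4i2 against Cox4i1, all in the direction of the uncorrected ratios. Cox7a1 still passed in that fit (log2 difference 0.55, edgeR adjusted p = 0.0479).

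The other subunit genes of the enzyme were read beside these values. Of 14 in the gene table, 11 were tested, 10 had a positive difference and 1 passed, Cox6c, which encodes a small membrane subunit (log2 difference 0.62, SE 0.10, edgeR adjusted p = 0.0391). Next by p was Cox7b, another small membrane subunit (log2 difference 0.41, SE 0.10, adjusted p = 0.0936). Of the 11 tested, 7 (63.6%) were at an unadjusted p under 0.05, against 20.9% of all genes tested. DESeq2 called 3 higher, against 3.15% of all genes. The labelled groups did not overlap in 7 that were higher and 1 that was lower under the label TAC, against 13.4% and 13.6% of all genes. In edgeR 1.43% of all genes passed. The median of the 11 was 0.27, as over the 9 isoform genes. The mitochondrially encoded core subunits mt-Co1, mt-Co2 and mt-Co3 had log2 differences of 0.25, 0.24 and 0.27 (SE 0.17, 0.14 and 0.15) and did not pass. The testis forms Cox6b2 and Cox7b2 had 0 to 11 counts in a library, and Cox8c had none.

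**Figure D4:**
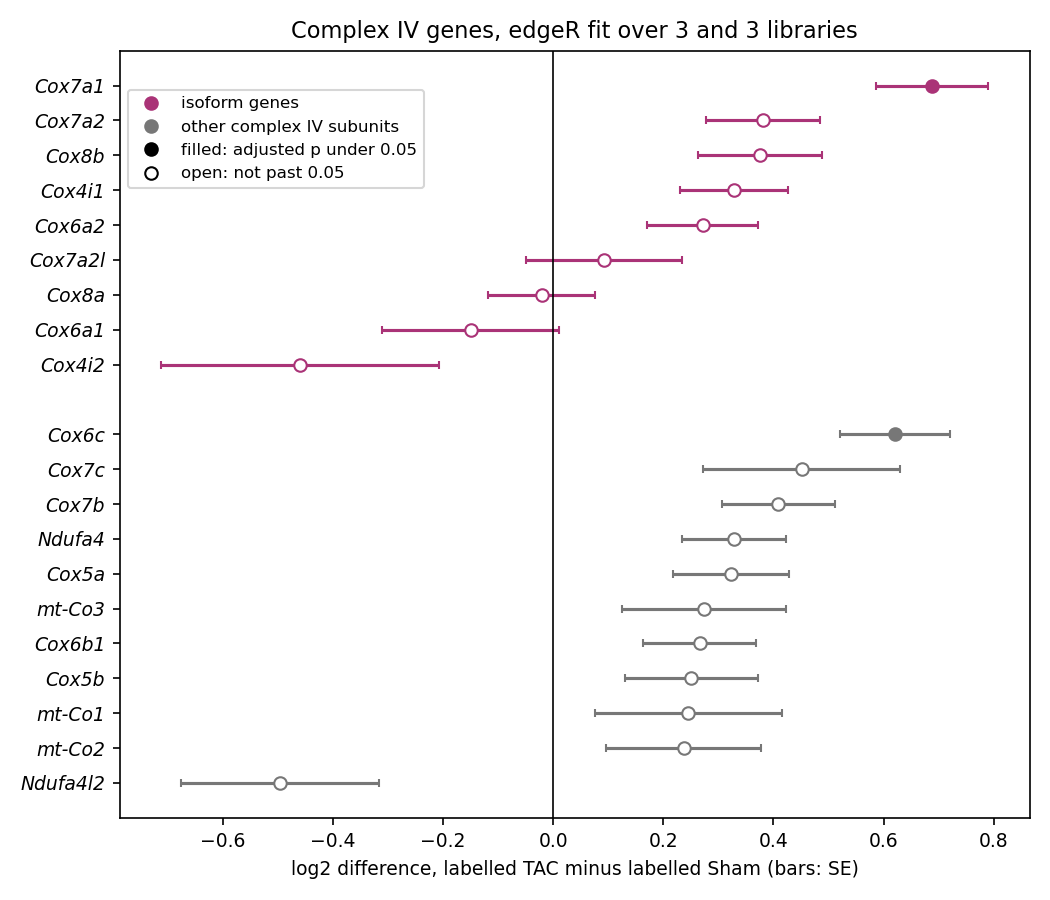
Log2 difference with its SE for the 9 isoform genes and the 11 other subunits tested, filled where the adjusted p was under 0.05. Cox7a1 at 0.69 and Cox6c at 0.62 are the filled points, and Cox4i2 and Ndufa4l2 lie lowest in their groups.

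Genes that assemble the enzyme or deliver its copper and haem had a median log2 difference of 0.09, against 0.01 over all genes. Of 29 tested, none passed in edgeR and 4 (13.8%, against 20.9% of all genes) were at an unadjusted p under 0.05. DESeq2 called 1 of the 29 higher, against 3.15% of all genes. The smallest p-values belonged to Lrpprc, which stabilises mitochondrial mRNAs (log2 difference 0.43, adjusted p = 0.114), and Cox20, which helps to insert the second core subunit (0.35, adjusted p = 0.179). Of 19 regulators tested, none passed in edgeR and 6 (31.6%, against the same 20.9%) were at an unadjusted p under 0.05. DESeq2 called 2 of the 19 higher, against the same 3.15%. The lowest p-values were those of the PGC-1 coactivators Ppargc1b (log2 difference 0.72, adjusted p = 0.0563) and Ppargc1a (0.88, adjusted p = 0.0643). Of the 19 regulators, 14 had a positive and 5 a negative difference. Hif1a, which is known to act on Cox4i2 in low oxygen, had a log2 difference of -0.52 (adjusted p = 0.192) with overlapping groups. Epas1, on the same list, averaged 120 scaled FPKM over the 6 libraries against 18.2 for Hif1a. The log2 difference of Epas1 was -0.01 (edgeR adjusted p = 0.972), also with overlap. The part of these regulators in the level of Cox4i2 was not tested.

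Markers of the cells that carry these forms moved with the labels in part. In bulk tissue, fewer cells of a type and less RNA per cell cannot be told apart. All 7 cardiomyocyte markers had a positive difference, none passed in edgeR (6 at an unadjusted p under 0.05, or 85.7% against 20.9% of all genes, and 3 called higher by DESeq2, against 3.15% of all genes), and their summed level was 10428 to 15941 scaled FPKM under the label TAC and 8939 to 11434 under the label Sham. All 7 fibroblast markers had a negative difference and 1, Col1a2, passed, where 1.11% of all genes were called lower. At an unadjusted p under 0.05 there were 6, or 85.7% against 20.9% of all genes. DESeq2 called 5 of them lower, against 4.65% of all genes. The fibroblast sums were 273 to 284 against 438 to 568. All 7 macrophage markers had a negative difference and none passed in edgeR. At an unadjusted p under 0.05 there were 5, or 71.4% against 20.9% of all genes. DESeq2 called 1 of them lower, against 4.65% of all genes. The macrophage sums were 85.6 to 153 against 189 to 205. The part of these markers in the ratios was not tested.

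Cox4i2 is known from pericytes, and 11 pericyte and smooth muscle markers were read beside it. They summed to 404 to 449 scaled FPKM under the label TAC and 343 to 422 under the label Sham, 4 were positive and 7 negative, and none passed in edgeR (7 at an unadjusted p under 0.05, or 63.6% against 20.9% of all genes, and DESeq2 called 2 higher and 2 lower, against 3.15% and 4.65% of all genes). Rgs5 alone held 174 to 253 scaled FPKM of each sum, with a log2 difference of 0.02, so the sum does not stand for the list. Without overlap, 1 marker was higher under the label TAC (Abcc9, log2 difference 0.67). In the same way 5 were lower (Pdgfrb, Cspg4, Tagln, Cnn1 and Notch3, -1.04 to -0.32). Over all genes these shares were 13.4% and 13.6%. The part of these markers in the level of Cox4i2 was not tested. Endothelial sums overlapped, at 183 to 209 and 170 to 215.

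Brown fat and skeletal muscle markers were read because those tissues also make the muscle forms. Of the 8 brown fat markers 3 were tested, and their list summed to 18.5 to 19.1 scaled FPKM under the label TAC and 23.6 to 38.7 under the label Sham. Dio2, whose product activates thyroid hormone, was lower under the label TAC, with 126 to 145 counts against 581 to 3082. Its log2 difference was -3.13 (SE 0.49, edgeR adjusted p = 0.0375). Cidea, a lipid droplet gene, had 353 to 610 counts and was slightly lower without overlap (log2 difference -0.17, adjusted p = 0.426), and Prdm16 had 391 to 723 counts with overlap (0.21, adjusted p = 0.607). The defining gene Ucp1 had at most 1 count in any library, as had Elovl3 and Zic1, while Adipoq had at most 7 and Plin1 at most 24. The skeletal muscle sums were 10.9 to 14.3 against 10.6 to 14.8, nearly all of it Mybpc2, a fast myosin-binding protein gene, at 10.2 to 13.9 scaled FPKM over the 6 libraries. The other 10 skeletal muscle markers had at most 28 counts in a library, and the fast myosin genes Myh1, Myh2 and Myh4 at most 3. Their part in the differences of the isoform genes was not tested.

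Among 2530 other genes at a mean FPKM of at least 10, those whose log2 CPM followed the restricted forms most closely over the 6 libraries were found for description alone, since 6 points that share a difference between labels give high values easily. Cox8b was followed most closely by Ndufb11, a complex I subunit gene (Pearson r = 0.998), Ppp1r14c (0.997) and Tmem50b (0.996). Cox6a2 had Ppp2r5a (0.993), Ablim1 (0.993) and Atp5b, the beta subunit gene of ATP synthase (0.987). Cox7a1 had Ppp2r5e (0.996), Paqr9 (0.983) and Ddo (0.981). Cox4i2 had Ppap2a (0.986), Hspb6 (0.983) and Chmp7 (0.981), with the counting error of its low counts in each point.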

How the data were processed

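Total RNA of left ventricle was sequenced in 6 libraries, 3 labelled TAC and 3 labelled Sham, each tied to its columns by its description label. Per the labels' protocols, an miRNeasy kit gave the RNA and a VAHTS kit for total RNA gave the libraries. Tools named by the submitters' processing notes are HISAT2 2.0.4 and StringTie 1.3.0, with GRCm38 (mm10) as the build. The counting program, strand setting, annotation version and filters are not stated. The authors deposited unnormalized counts, 1 whole number for each gene and library. The FPKM values deposited by the authors divide each count by 1 length per gene and by the library's gene total, from which the lengths were recovered. Of the deposited lncRNA counts, those overlapping a member were read.

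All genes were fitted together with edgeR 4.0.16 (quasi-likelihood, TMM, filterByExpr with a minimum count of 10, no block, Benjamini-Hochberg, adjusted p under 0.05) in R 4.3.3. Each SE is the size of the log2 difference over the root of its F statistic. Pair ratios used exact permutation tests (scipy 1.17.1). Alternatives were DESeq2 1.42.0, limma 3.58.1 on log2(FPKM + 0.1) or log2(FPKM + 1), other scalings, no filter, a replicate block, a loess correction for gene length and each library left out. The fit was tested on simulated counts. No library repeats another: within a group the lowest chi-square for each gene was 16.6.

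The members and lists were chosen with earlier results of these data known. All members are named; of the other subunits, assembly genes and regulators, genes past the threshold and, where fewer than 2 passed, those with the smallest p. Nppa, Acta1, the mitochondrial core subunits, Ndufa4, Ndufa4l2, Emc8, Hif1a, Epas1 and the marker genes were named after their values were seen. Of the 131 symbols listed, 127 matched directly, 2 by an older symbol and 1 was not in the gene table, and 1 was an older name of a listed gene.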

Additional observations from a re-analysis of the deposited data

How the results depend on the processing

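The number of members called was 1 with median-of-ratios scaling, library totals, mitochondrial genes left out, no filter, the length correction and both limma fits. It was 3 with DESeq2 and 0 with the replicate block (4 at an unadjusted p under 0.05), and 0 to 1 over the fits without 1 library. The same numbers hold for the other complex IV subunits: 3 with DESeq2, 0 with the replicate block and 0 to 1 without 1 library. DESeq2 called 1 assembly gene, and the other alternatives called none. Over the whole table, 217 genes passed in the fit reported, 338 with library totals, 432 with no filter, 41 with the replicate block, 1184 with DESeq2 and 0 to 397 without 1 library. Same-numbered libraries did not deviate together (correlations of -0.14, -0.12 and -0.10 over 15198 genes). With 3 libraries in a group these values cannot show whether the libraries were paired, and the labels do not name a pairing. In the replicate block, which uses the shared number, Cox7a1 had an edgeR adjusted p of 0.106.

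Of the members, Cox7a2l reversed to -0.019 without Sham 3 (up to 0.24 without Sham 1), and Cox8a to 0.0022 without TAC 3 (down to -0.051 without Sham 3 and to -0.12 with the length correction). The causes were not tested. The other 7 members kept their sign over 15 alternatives, Cox4i1 between 0.26 and 0.36, Cox7a2 between 0.31 and 0.44, Cox8b between 0.23 and 0.44, Cox6a2 between 0.19 and 0.31, Cox7a1 between 0.55 and 0.73, Cox6a1 between -0.29 and -0.03 and Cox4i2 between -0.67 and -0.28. The 4 ratios kept their sign in all settings, including the length correction added after seeing the data. They ranged from 0.27 to 0.57 for subunit VIa, 0.24 to 0.34 for VIIa, 0.32 to 0.46 for VIII and -1.01 to -0.61 for IV. Their exact p cannot fall below 0.10 here, 0.20 without 1 library or 0.25 as paired differences. Counting error is largest, relative to the level, for Cox4i2.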

Other observations

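Another pair of complex IV genes, noticed after the values were seen, showed opposite signs in the same way as Cox4i1 and Cox4i2. Ndufa4, now counted as a subunit of this enzyme, had 64.1 ± 0.515 scaled FPKM under the label TAC and 51.1 ± 2.55 under the label Sham (SD, n = 3 each; log2 difference 0.33, SE 0.09, edgeR adjusted p = 0.119). Its paralogue Ndufa4l2, known as a hypoxia-induced gene, had 4.56 ± 0.741 against 6.43 ± 0.271 (log2 difference -0.50, SE 0.18, edgeR adjusted p = 0.179). Neither gene overlapped between the labels, and neither passed. Over all genes tested, 13.4% were higher and 13.6% lower under the label TAC without overlap.

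Against the mitochondrially encoded core subunit mt-Co1, Cox4i1 kept a similar proportion under both labels. There were 160, 170 and 142 mt-Co1 counts per Cox4i1 count in libraries TAC 1, 2 and 3 and 171, 164 and 163 in libraries Sham 1, 2 and 3, with overlapping groups.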
